A study of Danio rerio with 3 samples.

Results

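Glycolysis enzyme oligos are the array features whose title names an enzyme of the route from glucose to pyruvate and lactate. They were picked by title words alone (aldolase, enolase, pyruvate kinase, phosphoglycerate, glyceraldehyde, triosephosphate, phosphofructokinase, hexokinase, glucose phosphate isomerase and lactate dehydrogenase), with control spots left out. There were 135 such oligos, printed in 151 spots, of 33719 oligos in all. Of these, 105 could be tested, with a usable spot on all 3 arrays and signal above background. The words also matched 4 transaldolase oligos and 1 phosphoglycerate dehydrogenase oligo, enzymes of the pentose phosphate and serine routes, which are given apart.

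The study hybridised 3 two-colour arrays of long oligos from zebrafish embryos at 40% epiboly. On each array RNA of 50 pooled embryos given a FoxH1 morpholino (an antisense oligo against the transcript of this Nodal effector) was set against RNA of 50 pooled embryos given a control morpholino. Cy3 labelled the morphant RNA on the first pair of arrays, and the dyes were exchanged on array 3. The repeats are described as independent, so n = 3 arrays throughout, and their number limits the precision of every value. All values are whole-embryo RNA, in which fewer cells of a type and less RNA per cell cannot be told apart. A morpholino lowers a gene's product without deleting it, and both arms were injected.

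Glycolysis splits glucose into a pair of pyruvates. In the preparatory phase, from hexokinase to triosephosphate isomerase, ATP is spent to make triose phosphates. In the payoff phase, from glyceraldehyde-3-phosphate dehydrogenase (GAPDH) to pyruvate kinase, ATP and NADH are gained, and lactate dehydrogenase returns NADH to NAD+. Vertebrates have several isoforms at most steps. Aldolase B is the form of liver, kidney and gut and also cleaves fructose 1-phosphate, aldolase A that of muscle and aldolase C that of brain. Aldolase B also works in the reverse direction, in gluconeogenesis.

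The titles fix what can be named. Of the 135 oligos, 118 are titled by likeness to a gene, often of another species, so an isoform name is that of the matched gene. The 6 members with a RefSeq accession all matched zebrafish genes in the table for assembly GRCz12tu, as gpia, gpib, ldha and ldhba (ldhb on the array). Most members came from the MWG set (104), with 26 from Operon and 5 from Compugen. Several oligos can lie in 1 transcript, and oligos of near-identical isoforms may share signal, so they are not separate replicates. Oligo sequences were not used here.

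A value is the log2 ratio of morphant over control after loess normalization, so -1 is a level of 1 to 2 and 1 is a level of 2 to 1. The columns of array 3 were read by sample, as on arrays 1 and 2. The local background was higher in red than in green for 5.50% of the spots of array 1, for 5.15% of those of array 2 and for 94.1% of those of array 3. Ratios of 132 random negative control spots correlated at r = 0.90 between arrays 1 and 2 and at r = -0.70 between their mean and array 3. Over the 105 members the correlation was r = 0.93 between arrays 1 and 2 and r = -0.35 between array 1 and array 3, and likewise r = -0.35 between arrays 2 and 3. These are correlations across spots or oligos that share arrays. The labels give the dyes but not which sample each column of array 3 holds, so its direction was read from the backgrounds and control spots. Some results are also given with array 3 turned, that is, with the opposite sign.

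Because 1 array of 3 was swapped, any dye preference of an oligo stays in part in its mean. The balanced mean, in which arrays 1 and 2 together weigh as much as array 3, is therefore given too. The dye component, as named here, is the mean of arrays 1 and 2 minus array 3, divided by 2. With only array 3 swapped, it also holds whatever else set array 3 apart, such as its pools and spot noise. These cannot be told apart from dye in this design. Its median size was 0.24 among the members and 0.34 among all tested oligos, against 0.31 and 0.25 for the size of the balanced mean. It followed brightness. In the 63 members brighter than the median random control spot its median size was 0.17, and in the 42 dimmer members it was 0.78. Array 1 and array 3 correlated at r = 0.14 over the brighter members and at r = -0.66 over the dimmer ones.

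Depth and identity of the samples were as follows. Median intensities of oligo spots ran from 146.55 to 467.2 over both columns of the 3 arrays. Signal exceeded 2 background SDs in both dyes on every array for 100 of the tested members, and in each dye on at least 1 array for the other 5. Of 11 fixed embryo markers, 10 had a tested oligo and 8 had one brighter than the median random control spot. The 2 tested oligos of foxh1, the targeted transcript, were at -0.049 and -0.004, which checks little because a morpholino need not alter its target's RNA.

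No glycolysis oligo passed limma's test at an adjusted p under 0.05, in either direction, nor did any of the 26208 tested oligos (0% called in each direction). The lowest adjusted p among members was 0.282, also the lowest of all oligos. With a dye term the count was again 0, with a lowest adjusted p of 0.105, and dropping the moderation also left 0. At an unadjusted p under 0.05 there were 8 lower members against 5.29% of all oligos, and 12 higher members against 6.05%, that is 7.62% and 11.4% of the members. With the dye term these were 15 lower and 24 higher members, against 11.9% and 15% of all oligos.

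Counts by sign exceeded the share of all oligos only above 0. Below 0 on all 3 arrays were 18 of 105 members, or 17.1%, against 17.6% of all oligos. Above 0 on all 3 arrays were 26, or 24.8%, against 17%. The median log2 ratio of the members was 0.10, against 0.02 for all tested oligos. In balanced means these medians were 0.02 and -0.01. With array 3 turned, 2 members passed lower and 12 higher, where 1.31% and 8.21% of all oligos passed. Without array 3, 14 passed lower and 25 higher, where 8.16% and 14.5% of all oligos passed. Arrays 1 and 2 have the same dye orientation, so the dye component enters whole in both of these settings.

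Aldolase B oligos all lay below 0. All 5 were tested, and all 5 lay below 0 on every array, between -2.31 and -1.28. The oligo of the zebrafish aldolase B transcript (AF533646, Operon) was at -1.43, -1.42 and -1.71 on arrays 1, 2 and 3. All 3 values were below -1.4, including that of the array with exchanged dyes.

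The other 4 aldolase B oligos are MWG oligos titled for fish homologs. DRFRAMEFINDER01038, matched to sea bream aldolase B, was at -1.61, -1.52 and -1.68. DRFRAMEFINDER04254, matched to the same entry and the brightest aldolase oligo, was at -1.39, -1.50 and -1.61. DRFRAMEFINDER09029, the third of that title, was at -1.78, -2.31 and -1.71. These 3 share their source entry, so they may read 1 transcript. The salmon match DRFRAMEFINDER10467 was at -1.66, -1.66 and -1.28. The largest dye component among the 5 oligos was 0.19 in size.

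The mean of the 5 oligos was -1.62 ± 0.06 (SD, n = 3 arrays), a morphant level of 0.326 of the control level. The balanced mean was -1.61. Limma gave unadjusted p from 9.6e-04 to 0.0018 for the 5, and an adjusted p = 0.282 for each, so none passed over all oligos. With the dye term the adjusted p was 0.105 for each. Of all 26208 tested oligos, 428 (1.63%) lay as far below 0 as the highest of the 5. With array 3 turned their means lay between -0.80 and -0.38 (adjusted p from 0.585 to 0.781), with opposite signs on array 3 and the others.

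Aldolase A and C oligos were mixed and nearer to 0. The 6 tested aldolase A oligos averaged -0.19 ± 0.18 (SD, n = 3 arrays), with 4 means below 0 and 2 above. The zebrafish aldolase A oligo (AF533645) was at -0.77, -0.58 and -0.39, below 0 on every array. DRFRAMEFINDER04517, also titled aldolase A, was at -0.52, -0.47 and -0.47. Limma gave the 2 oligos unadjusted p of 0.035 and 0.040, and adjusted p of 0.403 and 0.417. The higher of the 2 means above 0 was that of DRFRAMEFINDER10044, at 1.54, 1.70 and -0.87, so array 3 had the opposite sign. The other, DRFRAMEFINDER08973, was above 0 on every array, at 0.04, 0.10 and 0.13. The 10 tested aldolase C oligos averaged -0.20 ± 0.18, with 6 means below 0 and 4 above. On all 3 arrays, 4 of them lay below 0 and 2 above. The latter were DRFRAMEFINDER11959, at 1.04, 1.33 and 0.01, and DRFRAMEFINDER07326, at 0.11, 0.24 and 0.49. The lowest aldolase C oligo, the Operon oligo BI429063 titled as the brain type, was at -1.64, -1.68 and -0.76. Its mean was -1.36 ± 0.52 (limma adjusted p = 0.317). The zebrafish aldolase C oligo (AF533647) was at -0.92, -0.30 and -0.45.

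The sign on array 3 was opposite to that on arrays 1 and 2 for some aldolase C oligos. DRFRAMEFINDER01746 was at 2.88, 3.01 and -2.94, a mean of 0.98 and a balanced mean of 0.00, and with array 3 turned its mean was 2.94 (limma adjusted p = 0.0063). Of the oligos titled for goldfish aldolase C, 3 are of 1 UniGene cluster and had means of opposite sign. DRFRAMEFINDER04365 was at 0.52, 0.49 and -0.20, DRFRAMEFINDER10402 at -0.49, 0.40 and -0.10, and DRFRAMEFINDER09964 at -1.87, -2.03 and 0.46. Oligos of this cluster thus did not give 1 direction, and each had at least 1 array of the opposite sign. Another UniGene cluster also held 3 tested aldolase oligos, all with means below 0, from -0.53 to -0.27. In it DRFRAMEFINDER04250 and DRFRAMEFINDER04517 are titled aldolase A and DRFRAMEFINDER11981 aldolase C. The titles thus do not cleanly separate the A and C forms.

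In means over their oligos, aldolase B differed from aldolase A and from aldolase C by more than the spread over arrays. By the single oligo of each zebrafish transcript the forms lay closer, with means of -0.58 for A, -1.52 for B and -0.56 for C. BI429063, titled aldolase C, lay within the range of the aldolase B oligos on arrays 1 and 2. Aldolase B minus aldolase C was -1.42, -1.64 and -1.20 on arrays 1, 2 and 3, a mean of -1.42 ± 0.22. Aldolase A minus aldolase B was 1.47, 1.62 and 1.20, a mean of 1.43 ± 0.21. Aldolase A minus aldolase C was 0.01 ± 0.04, within its spread. Turning array 3 gave -0.62 ± 1.58 for aldolase B minus C and 0.63 ± 1.58 for A minus B, both within their spread. An exact two-sided sign-flip test over 3 arrays cannot go below p = 0.25, which is the value for both pairs with aldolase B (adjusted p = 0.600 over 12 isoform pairs). Over all 23 tested aldolase oligos the mean was -0.50 ± 0.13, and without the 5 aldolase B oligos it was -0.19, a comparison chosen after the values were seen.

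GAPDH, the enzyme that makes NADH and the first compound of the payoff phase, had 8 of 9 tested oligos with a mean above 0. Of the 9, 7 had a balanced mean above 0, and 5 lay above 0 on all arrays, where 17% of all oligos did. The titles do not separate its isoforms. DRFRAMEFINDER10121, matched to trout GAPDH, was at 1.27, 1.24 and 1.33. DRFRAMEFINDER07043, of the same title, was at 1.34, 1.17 and 1.32. DRFRAMEFINDER05225, matched to flounder GAPDH, was at 1.18, 1.10 and 1.32. All 9 values were above 1 with array 3 read by sample. The means of the 3 oligos lay between 0.32 and 0.40 with array 3 turned (limma adjusted p from 0.722 to 0.765).

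The other GAPDH oligos were less uniform. DRFRAMEFINDER04669, also matched to trout GAPDH, was at 0.93, 0.86 and 0.41. The brightest, DRFRAMEFINDER04180, matched to sea bream GAPDH, was at 0.08, 0.19 and 0.49, above 0 on each array but closer to it. Of the remaining 4, all dimmer than the median random control spot, each changed sign between array 3 and the others. The group averaged 0.75 ± 0.44 (SD, n = 3 arrays), with a balanced mean of 0.63. Limma gave an adjusted p = 0.282 for the 3 leading oligos and 0.374 for DRFRAMEFINDER04669. Of all 26208 tested oligos, 2730 (10.4%) lay as far above 0 as DRFRAMEFINDER04669, the lowest of these 4. Of 17 GAPDH oligos, 8 could not be tested.

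Phosphoglycerate kinase, which makes the first ATP of the payoff phase, gave the highest step mean, 1.42 ± 0.12, over 2 tested oligos of 3. This mean was 0.51 with array 3 turned, below lactate dehydrogenase (0.71), pyruvate kinase (0.61) and GAPDH (0.58). The Operon oligo AL718586, titled for human phosphoglycerate kinase 1, was at 2.06, 1.84 and 1.87. The MWG oligo DRFRAMEFINDER12681, matched to hamster phosphoglycerate kinase, was at 1.06, 0.84 and 0.88. Both were above 0 on all arrays, with dye components of at most 0.04 in size, yet they differed from each other by about 1 on every array. Limma gave unadjusted p of 5.7e-04 and 0.0066 and adjusted p of 0.282 and 0.292 for AL718586 and DRFRAMEFINDER12681. Of all tested oligos, 1618 (6.17%) lay as far above 0 as the lower of the 2. With array 3 turned their means were 0.68 and 0.34.

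Phosphoglycerate mutase, which moves the phosphate group to set up the enolase step, averaged 0.42 ± 0.14 over 10 oligos. Its muscle form, PGAM2, had 3 oligos with means from 0.11 to 1.09. The highest, DRFRAMEFINDER10012, was at 1.12, 0.77 and 1.38 (mean 1.09 ± 0.31, limma adjusted p = 0.306). The brain form, PGAM1, had 5 means above 0 and 2 below. Its oligo AJ301601 was at 0.77, 0.63 and 0.78, while the brightest oligo of the step, BI896551, was at -0.34, -0.41 and -0.14. These oligos of the brain form lay on opposite sides of 0, each with 1 sign on all arrays. The difference between the forms, PGAM1 minus PGAM2, was -0.22 ± 0.39 and less than its spread.

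Enolase makes phosphoenolpyruvate. Its 12 tested oligos averaged 0.57, 0.63 and -0.22 on arrays 1, 2 and 3, a mean of 0.32 ± 0.47, so array 3 had the opposite sign. The brightest alpha enolase oligo, DRFRAMEFINDER06543, was at 0.22, 0.02 and 0.61. One of the 2 oligos matched to duck tau-crystallin/alpha-enolase, DRFRAMEFINDER01890, was at 0.66, 0.38 and 0.76, and the other, DRFRAMEFINDER09948, at 1.87, 1.62 and -1.47. The single beta enolase oligo was at 1.30, 1.44 and -0.52. Alpha minus beta enolase was -0.41 ± 0.66, within its spread.

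Pyruvate kinase, the last step to pyruvate, had 6 tested oligos, taken here as 1 isoform group. Of these, 5 are titled type M and DRFRAMEFINDER12343 is titled pyruvate kinase 3. The brightest, DRFRAMEFINDER09705, was near 0 on every array, at 0.01, 0.06 and 0.02. The other tested oligo of its UniGene cluster, DRFRAMEFINDER02354, was at -0.61, -0.11 and -0.33. DRFRAMEFINDER08182 was at 3.67, 3.86 and -3.64, with a balanced mean of 0.06, and a mean of 3.72 with array 3 turned (limma adjusted p = 0.0063). The step averaged 0.60, 0.65 and -0.58 on arrays 1, 2 and 3, a mean of 0.22 ± 0.69 with a balanced mean of 0.02. It ran from 0.010 to 0.62 with 1 array left out, the highest without array 3. The liver-form oligo was usable on 1 array only and was not tested.

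Lactate dehydrogenase has an A form, associated with making lactate, and a B form, associated with using it. Zebrafish ldhb is named in the titles of 5 oligos of 3 sets. Of these, 3 carry an accession of the transcript itself, and the others are titled by likeness to it. The Operon oligo (NM_131247) was at 0.59, 0.51 and 0.61, and the Compugen oligo (AF067202) at 0.77, 0.83 and 0.35. The MWG oligo NM_131247_1 was at 1.04, 1.23 and -0.47. Of the other MWG oligos titled for zebrafish ldhb, DRFRAMEFINDER05187 was at 1.06, 0.95 and -1.68 and DRFRAMEFINDER11166 at 1.93, 3.07 and -2.56, so all 3 MWG oligos had the opposite sign on array 3. The Operon and Compugen oligos, both well above the random control spots' median, were above 0 on every array, with limma adjusted p of 0.374 and 0.399. NM_131247_1, which changed sign, also lay above that median, at a log2 intensity of 9.16 against 8.52. All 7 B-form oligos averaged 0.50 ± 1.04 (SD, n = 3 arrays), with a balanced mean of 0.20.

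The ldha transcript also had 3 oligos, with means on both sides of 0. All 3 were dimmer than the median random control spot, at log2 intensities from 6.97 to 7.72 against 8.52. The Compugen oligo (AF067201) was at 2.14, 2.07 and -1.86, and its balanced mean was 0.12. The MWG oligo (NM_131246_1) was at -0.04, 0.32 and 0.07, and the Operon oligo (NM_131246) at -0.06, -0.33 and 0.17. The balanced means of the 3 lay between -0.01 and 0.12. The A-form group also takes in the Operon oligo AA606081, titled for human chain M, at -1.10, -1.16 and 0.25. Its balanced mean was -0.44, and at a log2 intensity of 9.45 it was brighter than the median random control spot. Over these 4 oligos, the A form minus the B form was -0.46 ± 0.71, within its spread. With array 3 turned, AF067201 had a mean of 2.02 and passed (limma adjusted p = 0.0090).

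The Operon ldha oligo was printed 17 times, so its spots can be compared within an array. On array 1 its 16 usable spots ran from -1.52 to 0.70, with a median of 0.16 and an SD of 0.70. On array 2 the 13 usable spots ran from -1.49 to 0.39 (SD 0.65), and on array 3 all 17 ran from -0.83 to 1.32 (SD 0.50). Spots lay on both sides of 0 on each array. Its 3 array means thus come from spots that spread by more than the means differ from 0.

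The first steps of the pathway lay near or below 0. Hexokinase, which traps glucose in the cell, averaged -0.62, -0.58 and 0.26 over 10 oligos, a mean of -0.31 ± 0.50. The balanced mean of the step was -0.17, and 6 of its 10 oligos had a balanced mean above 0. The step was at -0.08 as the median over oligos, and at -0.07 over oligos above background in both columns on all arrays. Its brightest oligo, DRFRAMEFINDER08252, matched to carp hexokinase I, was at -0.36, -0.19 and 0.32. Of the same title and UniGene cluster, DRFRAMEFINDER00636 was at -1.37, -1.26 and -0.02, lower on each array. The lowest hexokinase value, -2.09, came from DRFRAMEFINDER05259, above background in both columns on 1 array only. Type 1 minus type 2 hexokinase was -1.20, -0.93 and 0.09 on arrays 1, 2 and 3, a mean of -0.68 ± 0.68. Over oligos above background in both columns on all arrays this mean was -0.32.

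Glucose phosphate isomerase, which turns glucose 6-phosphate into fructose 6-phosphate, averaged 0.13 ± 0.04 over 5 oligos. Their means ran from -0.38 to 0.77, and none of them had 1 sign on all arrays. The oligo of gpia, the brightest of the step, was at 0.33, 0.40 and -0.01, and that of gpib at 0.01, -0.10 and -0.01. The difference gpia minus gpib was 0.27 ± 0.26. Phosphofructokinase, the main control point, averaged -0.17 ± 0.29 over 8 of 14 oligos. Its brightest oligo, DRFRAMEFINDER09821, was at -0.30, -0.31 and 0.13. Both muscle-form oligos were unusable on at least 2 arrays. Liver minus platelet form was -0.09 ± 0.22.

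Triosephosphate isomerase, which interconverts the triose phosphates, showed oligos of 1 gene in several sets. The tpi1b transcript was at -0.55, -0.35 and 0.03 by its Compugen oligo (AF387819), at -0.17, -0.17 and 0.06 by its MWG oligo (AF387819_1) and at -0.57, -0.82 and 0.89 by its Operon oligo (AF387819). Each was below 0 on arrays 1 and 2 and above it on array 3. The Compugen oligo of tpi1a was at 1.34, 1.47 and -1.66 and the MWG oligo at 0.96, 0.09 and 2.32. That MWG oligo was above background in both columns on 2 arrays only. The balanced means of these Compugen and MWG oligos were -0.12 and 1.42. The step averaged 0.19 ± 0.14. The difference tpi1a minus tpi1b was 1.58, 1.23 and 0.002 on arrays 1, 2 and 3, a mean of 0.94 ± 0.83.

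Set side by side, the 51 tested oligos of the preparatory phase averaged -0.28, -0.36 and -0.21 on arrays 1, 2 and 3 (mean -0.28 ± 0.07), and -0.14 without the aldolase B oligos. The 39 oligos of the payoff phase averaged 0.75, 0.66 and 0.06 (mean 0.49 ± 0.38). Payoff minus preparatory was 1.03, 1.01 and 0.27, a mean of 0.77 ± 0.43 and 0.65 in balanced means, above 0 on 3 of 3 arrays (exact two-sided sign-flip p = 0.25, the smallest possible). Turned, array 3 gave -0.27 and the mean was 0.59 ± 0.75, so the 3 arrays no longer shared a sign. Of the 51 preparatory oligos, 23 were of aldolase, which averaged -0.65 on array 3 read by sample. On that array hexokinase averaged 0.26, glucose phosphate isomerase 0.08, phosphofructokinase -0.07 and triosephosphate isomerase 0.33, against 0.06 for the payoff phase. The sign of the phase difference on array 3 thus rested on aldolase. Step means ran from -0.50 for aldolase to 1.42 for phosphoglycerate kinase. Turning array 3 gave a range from -0.49 for hexokinase to 0.71 for lactate dehydrogenase, with aldolase at -0.06. With array 3 read by sample, the step means of GAPDH, phosphoglycerate kinase and phosphoglycerate mutase lay above 0 on all 3 arrays. Of their tested oligos, 5 of 9, 2 of 2 and 5 of 10 did so. The means of glucose phosphate isomerase and triosephosphate isomerase also lay above 0 on all 3. Only 0 of 5 and 1 of 5 of their tested oligos did, so these means average oligos of mixed sign. The aldolase mean alone lay below 0 on all 3. The sign-flip test could call no step, since its p cannot go below 0.25 on 3 arrays (smallest adjusted p = 0.458 over 11 steps). In the phosphoglycerate mutase and triosephosphate isomerase steps the brightest oligo had the opposite sign to the step mean, at -0.30 and -0.09.

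The enzymes matched only through the words of their titles were near 0 or mixed. The single phosphoglycerate dehydrogenase oligo was at 0.36, 0.29 and 0.11. The 3 tested transaldolase oligos averaged -0.23 ± 0.47, from -0.90 to 0.14.

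Oligos of neighbouring pathways, taken by title from lists made for this description, gave no call by limma in either direction (0 in each of 6 lists, against 0% of all oligos). Of 44 tested oligos titled for gluconeogenesis or glycogen, whose words also take in glycogen synthase kinase, 4 were lower and 2 higher at an unadjusted p under 0.05, or 9.09% and 4.55%, against 5.29% and 6.05% of all oligos. Their median was 0.21, and 0.04 in balanced means, against 0.02 and -0.01 for all tested oligos. Phosphoenolpyruvate carboxykinase, which starts gluconeogenesis from oxaloacetate, was at -1.21, -1.75 and -1.19 by DRFRAMEFINDER09596 (limma adjusted p = 0.286) and at -0.76, -0.66 and -0.60 by the Operon oligo AF064833 (adjusted p = 0.351). Both lay below 0 on all arrays. Of the 44 oligos of the list, 5 lay below 0 on all arrays and 8 above it, where 17.6% and 17% of all oligos did. The oligos named from this list were those of smallest p. Muscle glycogen phosphorylase, which frees glucose units from glycogen, was at -1.03, -0.82 and -0.94 by DRFRAMEFINDER10511.

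Transport and the bifunctional regulator of phosphofructokinase gave single oligos of either sign. Of 13 tested oligos for glucose or monocarboxylate transport, 1 was lower and 3 higher at an unadjusted p under 0.05, or 7.69% and 23.1%, against 5.29% and 6.05% of all oligos. Titles of lactate carriers differed in sign. Monocarboxylate transporter 4 (DRFRAMEFINDER01583) was at 1.09, 1.13 and 0.64, and monocarboxylate transporter 3 (DRFRAMEFINDER12564) at 0.81, 0.74 and 0.72. Monocarboxylate transporter 1 (DRFRAMEFINDER06471) was at -1.60, -1.03 and -0.78. The oligo DRFRAMEFINDER06480, titled for 6-phosphofructo-2-kinase, whose product activates phosphofructokinase, was at -1.41, -1.51 and -0.82. A second oligo titled for such an enzyme but matched to another entry, DRFRAMEFINDER08813, was at 0.37, -0.06 and 0.66. Its mean had the opposite sign, and the 2 oligos need not read 1 gene.

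Oxidation of pyruvate was represented by 77 tested oligos taken by title words of pyruvate dehydrogenase and the citric acid cycle. Of these, 0 were lower and 4 higher at an unadjusted p under 0.05, and the median was 0.08 (0.06 in balanced means). The higher oligos include DRFRAMEFINDER08892, taken in by the words malate dehydrogenase but titled as the decarboxylating NADP+ form. The lower and higher oligos were 0% and 5.19%, against 5.29% and 6.05% of all oligos. The isocitrate dehydrogenase oligo BM860423 was at 0.85, 0.72 and 0.87 (limma adjusted p = 0.312). The mitochondrial malate dehydrogenase oligo DRFRAMEFINDER06991 was at 0.90, 0.61 and 0.46. Of 6 tested pentose phosphate oligos none was past an unadjusted p of 0.05 (0 lower, 0 higher), with transketolase at 0.43, 0.24 and 0.08 by BM140798. Of 33 oligos for creatine kinase and adenylate kinase, 2 were lower and 0 higher at that p. These were 6.06% and 0%, against 5.29% and 6.05% of all oligos. The adenylate kinase 3-like oligo DRFRAMEFINDER03117 was at -1.22, -1.54 and -1.37.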

How the data were processed

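The files held 1 table per array. Per the file headers, each gives a mean spot intensity, a local background intensity and its SD for a red and a green column, a ratio and a quality score. The authors' deposited intensities were already background-subtracted. Their deposited ratio is red over green divided by 1 constant per array, within 1% for at least 99.4% of spots with signal. Taken to log2 and turned in sign, that ratio gives the authors' deposited log2 matrix to within 0.01 (35327 values or more on each array), which therefore runs green over red. It was used as an alternative. Spots with a deposited quality score of 0 were left out. The sources used here name no scanner.

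Log2 ratios of green over red were normalized per array by loess (span 0.3), with control spots given no weight, and repeat spots averaged. Tests took oligos with a usable spot on each of the 3 arrays whose signal exceeded 2 background SDs, in 1 dye or more, on 2 arrays or more. The fit (lmFit and eBayes of limma 3.58.1, under R 4.3.3) was run over 26208 oligos, without a dye term, adjusted by Benjamini and Hochberg and called at 0.05. Steps and isoforms were read from titles, and isoform pairs compared by exact sign-flip tests. The fit was tested on simulated data with 1 common spread for all oligos and no dye preference. That test therefore cannot tell how the fit handles the swapped array or unequal spreads.

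Oligos described per array were up to 12 with the smallest p among those of 1 sign on all arrays, the brightest of each step, and oligos of up to 3 genes or clusters with opposite signs. Others (AF533645, DRFRAMEFINDER04517, DRFRAMEFINDER08973, AF533647, DRFRAMEFINDER11959, DRFRAMEFINDER07326, AF067202, NM_131247_1, AA606081, AJ301601 and oligos with large dye components among them) were chosen after their values were seen. From each neighbouring list up to 3 oligos with the smallest p could be named. Members and lists were chosen with earlier results of these data known.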

Additional observations from a re-analysis of the deposited data

How the results depend on the processing

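Array 3 decided the counts of calls. With array 3 turned, 2 glycolysis oligos passed lower and 12 higher, of 344 and 2152 oligos in all. Leaving out 1 array gave 0 to 14 lower and 0 to 25 higher glycolysis oligos, and 0 to 2139 lower and 0 to 3811 higher oligos in all, with the highest counts without array 3. One sign on both remaining arrays was then found for 20 to 41 members below 0, or 19.0% to 39.0%. Among all oligos this share was 20.2% to 42.3%. Above 0 the counts were 28 to 54 members, or 26.7% to 51.4%, against 19.6% to 41.8% of all oligos. The other settings (dye term, median centring, loess within print-tip blocks, normexp, no background correction, both filters, poor spots kept, deposited matrix, no moderation) gave 0 calls. Step means that changed sign were phosphofructokinase (0.026 with no background correction, 0.022 with oligos above background in both columns), triosephosphate isomerase (-0.028 with array 3 turned, -0.041 above background in both columns, -0.092 as median and as brightest oligo), phosphoglycerate mutase (-0.30 as brightest oligo), pyruvate kinase (-0.079 with poor spots kept) and all members together (-0.014 with poor spots kept). The liver minus platelet phosphofructokinase difference was 0.46 above background in both columns and ran from -0.20 to 0.020 with 1 array left out. Aldolase A minus C was -0.050 with median centring, -0.060 with print-tip loess, -0.022 with normexp, -0.049 with no background correction and -0.050 in the deposited matrix, and ran from -0.012 to 0.024 with 1 array left out. Single oligos that changed sign were DRFRAMEFINDER08252 (0.023 with a dye term, -0.27 to 0.067 with 1 array left out), DRFRAMEFINDER04180 (-0.075) and DRFRAMEFINDER06543 (-0.12) with array 3 turned, DRFRAMEFINDER09705 (-0.18 with median centring, -0.094 with print-tip loess, -0.19 in the deposited matrix) and NM_131246 (0.018 with no background correction, -0.20 to 0.052 with 1 array left out). DRFRAMEFINDER10402, near 0 in the report, was at 0.0040 with array 3 turned, 0.052 with median centring, 0.044 with no background correction and 0.046 in the deposited matrix, and ran from -0.30 to 0.15 with 1 array left out. The cause was not tested. Each array paired 1 morphant pool with 1 control pool, and the tests used the ratio within the array. The labels give no further shared numbers by which samples could be paired.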
